A study of Rattus norvegicus with 96 samples.

Results

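The central nucleus of the amygdala (CeA) of alcohol-drinking rats was compared 24 h and 1 h after the last drinking session. The comparison rests on 21 of the 96 arrays of the series, 10 at 24 h and 11 at 1 h, chosen by the region, treatment and time in their titles. All rats were of the P line, which was bred for high alcohol preference, and their sex and age are not given in the sources used here. The ethanol rats had limited access to ethanol, which the series title calls binge drinking. Beside them stand 10 CeA arrays of ethanol rats at 6 h, 6 arrays of water rats at 24 h, 5 at 6 h and 6 at 1 h, and, in the nucleus accumbens shell (NAc shell), 11 arrays of ethanol rats at 24 h and 10 at 1 h. Nothing in the labels says which arrays of the 2 regions came from 1 rat, how much ethanol a rat drank, or whether an array holds 1 animal or a pool, so p values measure the spread between arrays. The hour of day at which tissue was taken is not given either. Samples taken 24 h after a session fall at about the same hour as the session itself, so the 24 h and 1 h samples lie closer in clock time than the 6 h samples do to either of them.

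The CeA is the main output nucleus of the amygdala. Most of its neurons release GABA together with a neuropeptide such as enkephalin, corticotropin-releasing hormone, somatostatin or neurotensin, and they project to the hypothalamus and brain stem. The nucleus takes part in fear, in the stress response and in the aversive state that follows alcohol intake, in which its GABA, opioid and stress peptide signalling are known to change. Immediate early genes such as Fos answer neuronal activity quickly and briefly, glucocorticoid-induced genes such as Sgk1 follow the hormone surge of stress and of the daily rhythm, and the clock genes cycle with the time of day. A measurement 24 h after drinking, set against one at 1 h, therefore asks what differs once the first hours have passed while the clock has come round to nearly the same point.

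The tissue was checked against its markers. Over the 21 arrays, log2 values of Gad1, the main GABA-synthesizing enzyme, lay between 14.25 and 14.47, those of Penk, the enkephalin precursor, between 12.27 and 14.19, and those of Prkcd, which marks a large class of CeA neurons, between 9.23 and 10.31. Crh, the gene of corticotropin-releasing hormone, varied more, from 6.76 to 10.99 with a median of 9.79. The cortical and basolateral markers Slc17a7 and Neurod6 had medians of 6.16 and 5.41, under the limit of 6.96 used for testing, and each reached 8.12 in its highest array. Slc17a6, a marker of thalamus and hypothalamus, was well above that limit, at 8.16 to 11.77 with a median of 10.29. Mbp of myelin stood at 14.11 to 14.92, so the tissue held white matter or glia as well. In bulk tissue such as this, fewer cells of a type and less RNA per cell cannot be told apart.

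Array medians were 7.70 to 7.79 at 24 h and 7.74 to 7.82 at 1 h. The gap between the 3 prime and 5 prime control probe sets of Gapdh, a measure of RNA length, was 2.84 ± 0.58 log2 at 24 h and 2.96 ± 0.57 at 1 h (SD, n = 10 and 11, permutation p = 0.624, two-sided). By their title numbers the arrays form 4 runs, since the sequence of times starts again 3 times along the numbers, and the labels do not say what a run is. Ethanol and water arrays are numbered separately. The runs of water arrays were matched to those of ethanol arrays by their order, which no label states. Runs 1 to 4 held 2, 4, 3 and 1 arrays at 24 h and 2, 3, 3 and 3 at 1 h. Gapdh gaps were larger in runs 3 and 4 than in runs 1 and 2, with means at 24 h of 2.30, 2.51, 3.61 and 2.88 over runs 1 to 4 and at 1 h of 2.38, 2.49, 3.55 and 3.22. Of the 4 CeA arrays that correlated poorly with the others, all in run 4, 0 were among the 24 h ethanol arrays and 1 was among the 1 h arrays. Since run 4 had 3 arrays at 1 h and 1 at 24 h, the test was run both without and with the run as a block, that is, as a term that removes differences between runs. Values are those without the block unless the block is named.

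With all 48 CeA arrays in the fit, no probe set passed the test between 24 h and 1 h after correction for the number tested. With the run block, 4 passed when the water arrays were left out, and these depended on which arrays were fitted. The median size of a difference was 0.07 log2, and a difference larger than 1 log2, which is a doubling, was measured for 1 probe set. The single probe sets with the smallest p values were mostly lower at 24 h than at 1 h, among them a probe set of the RNA-binding protein gene Khsrp. Probe sets of the mRNA export gene Thoc2 and of the splicing factor relative Zrsr2-ps1, also lower at 24 h, joined them only with the run block. Without the block, the median differences of clock genes and of oxidative phosphorylation genes were 0.04 and 0.00 log2.

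The test was limma on 18625 probe sets whose mean log2 value was above 6.96, with Benjamini-Hochberg adjustment over all of them and a group mean for each of the 6 treatment and time groups of the 48 CeA arrays. It passed 0 probe sets, or 0% of those tested, at an adjusted p under 0.05, and the smallest adjusted p was 0.977. An unadjusted p under 0.05 was found for 804 probe sets (4.32%), of which 363 were higher and 441 lower at 24 h. The median difference over all probe sets was 0.00 log2, and 51.1% were above 0. The 95% confidence interval lay within 0.5 log2 of 0, a fold of 1.41, for 89.2% of probe sets and within 1 log2 for 99.4%, so differences beyond these sizes lie outside the interval for most probe sets. The median standard error was 0.10 log2. With the run block 0 probe sets passed as well (smallest adjusted p 0.31), and 831 (4.46%) fell under an unadjusted p of 0.05, of which 336 were higher and 495 lower.

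**Figure D1:**
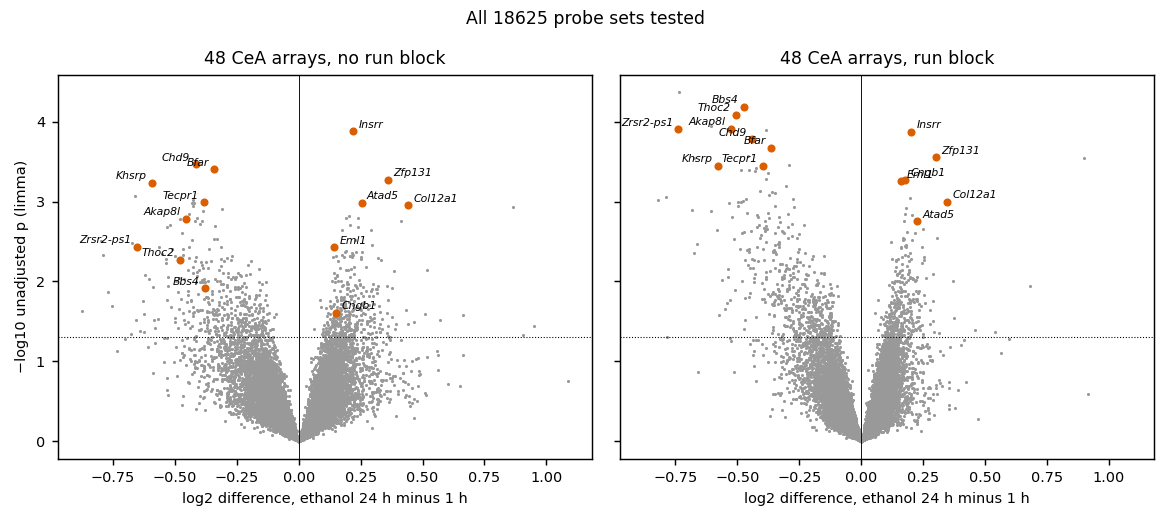
Log2 difference of ethanol rats at 24 h minus 1 h (x axis) against minus log10 of the unadjusted limma p (y axis) for each of the 18625 probe sets tested, without (left) and with (right) the run block. The dotted line marks an unadjusted p of 0.05, and orange points are the 14 genes described in full, of which 0 passed in either fit shown.

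Which arrays entered the fit mattered for a handful of probe sets. When only the 21 arrays of the comparison were fitted, 0 probe sets passed without the run block (846, or 4.54%, at an unadjusted p under 0.05) and 4 (0.0215%) passed with it (5.06% unadjusted), all lower at 24 h. These were Zrsr2-ps1, Thoc2 and 2 probe sets without a gene symbol, 1391305_at and 1379648_at, each at an adjusted p = 0.0471 (limma). With the 31 ethanol arrays of all 3 times and the run block, 4 passed (0.0215%, and 5.07% unadjusted), again all lower at 24 h. There 1391305_at had an adjusted p = 0.00987, and Thoc2, Zrsr2-ps1 and 1374283_at, which has no symbol either, had an adjusted p = 0.0418 each. These fits leave out the water arrays when the spread is estimated. The calls of the 21-array fit with the block rested on single arrays. Leaving out each array in turn gave 0 to 7 calls, with 0 in 13 of the 21 cases. It gave 1 call without the 24 h array of title number 12, and 2 without the 24 h array of number 4 or 23 or the 1 h array of number 18. Calls numbered 3 without the 24 h array of number 13 or 14, 4 without the 1 h array of number 8, and 7 without the 1 h array of number 28.

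Zrsr2-ps1 (probe set 1389874_at) is named for its likeness to Zrsr2, a factor of the minor spliceosome that recognises the end of introns. Its log2 values were 8.11 at the lowest, 8.90 at the median and 9.28 at the highest in the 10 arrays at 24 h, against 8.96, 9.50 and 10.10 in the 11 arrays at 1 h. All 10 arrays at 24 h lay under the 1 h median and 7 lay under every 1 h array, so the groups overlapped only between 8.96 and 9.28. The difference was -0.65 ± 0.21 log2 without the run block (SE, unadjusted p = 0.00365, adjusted 0.977) and -0.74 ± 0.18 with it (unadjusted p = 0.000124, adjusted 0.31). Within runs 1 to 4 it was -0.85, -0.48, -0.94 and -0.68, so each run had the same sign. Water rats had 8.49 ± 0.53 at 24 h and 8.97 ± 0.21 at 1 h (SD, n = 6 each), a difference of -0.48 ± 0.28 that did not pass either, and ethanol rats at 6 h had 9.28 ± 0.64 (n = 10). The 1 h ethanol arrays were thus the highest of these groups by mean, and the direction from 1 h to 24 h was shared by the water rats. Like the other genes described in full, Zrsr2-ps1 was chosen for a small p value in these same arrays. That choice also favours a small unadjusted p in the test of the difference between ethanol and water rats, which contains the same ethanol difference. Where the ethanol means lie beside the water means follows partly from it as well. Counts of arrays set apart and of runs with the same sign follow partly from such a choice, here and for every other gene named for a small p value. The share of all probe sets with such counts is not given here.

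Thoc2 (1396803_at) encodes the scaffold of the THO complex, which couples transcription to mRNA export. It ranged over 9.46, 10.13 and 10.58 (lowest, median and highest) at 24 h, against 10.24, 10.50 and 11.07 at 1 h. Of the 10 arrays at 24 h, 7 were under all 1 h arrays and 2 were above the 1 h median. The difference was -0.48 ± 0.16 without the block (unadjusted p = 0.00531) and -0.51 ± 0.12 with it (unadjusted p = 8.16e-05, adjusted 0.31). All 4 runs were negative, from -0.35 in run 2 to -0.94 in run 4, where 1 array stands for 24 h. Water rats averaged 9.80 ± 0.56 at 24 h and 10.11 ± 0.20 at 1 h.

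Khsrp (1376525_at) encodes a KH-domain protein that binds AU-rich messages and promotes their splicing or decay. At 24 h its values were 7.45, 7.97 and 8.39, against 8.16, 8.49 and 9.28 at 1 h. All 10 arrays at 24 h lay under the 1 h median, and 7 of them under the lowest 1 h array. The difference of -0.59 ± 0.16 (unadjusted p = 0.000576, adjusted 0.977) became -0.58 ± 0.15 with the block (adjusted p = 0.364), a fold of 1.51 in the first case. Water rats had 7.81 ± 0.64 at 24 h and 7.75 ± 0.36 at 1 h (SD, n = 6 each), and ethanol rats at 6 h stood at 8.50 ± 0.26. The 24 h ethanol mean of 7.95 was accordingly nearer to both water means than the 1 h mean of 8.54 was. The test of the difference between ethanol and water rats gave -0.65 ± 0.27 (unadjusted p = 0.0179, adjusted p = 1, limma). It contains the ethanol difference for which Khsrp was chosen, which favours a small unadjusted p.

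Chd9 (1395318_at) encodes a chromodomain helicase that remodels chromatin. Its lowest, median and highest values were 7.67, 7.99 and 8.33 at 24 h, against 7.77, 8.33 and 9.15 at 1 h. Again 10 of 10 arrays at 24 h were under the 1 h median, although only 1 was under every 1 h array. The difference of -0.42 ± 0.11 had an unadjusted p = 0.000338 (with the block -0.44, unadjusted p = 0.000165), and the 4 runs lay between -0.55 and -0.36. Water rats stood at 8.04 ± 0.24 at 24 h and 8.03 ± 0.14 at 1 h, next to the 24 h ethanol mean.

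Akap8l (1375813_at) encodes a nuclear relative of the A-kinase anchoring proteins that works in RNA export and chromatin. It had 6.82, 7.46 and 7.87 at 24 h, against 7.58, 7.79 and 8.36 at 1 h, and 7 arrays at 24 h lay under all 1 h arrays. The difference was -0.46 ± 0.14 (unadjusted p = 0.00163) and -0.53 ± 0.12 with the block (unadjusted p = 0.000121). It was -0.0043 in run 1 and -0.92 in run 4.

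The genes Bfar, Tecpr1 and Bbs4 were among the lower ones too. Bfar (1395377_at), an E3 ubiquitin ligase of the endoplasmic reticulum that restrains cell death, had 6.94, 7.33 and 7.41 at 24 h, against 7.31, 7.56 and 8.06 at 1 h. Tecpr1 (1375656_at), a tether that joins autophagosomes to lysosomes, had 7.39, 8.04 and 8.32 at 24 h, against 8.14, 8.39 and 8.79 at 1 h. In both genes 10 of 10 arrays at 24 h were under the 1 h median, with 5 under every 1 h array for Bfar and 7 for Tecpr1. Their differences were -0.34 ± 0.09 (unadjusted p = 0.000393) for Bfar and -0.38 ± 0.11 (unadjusted p = 0.00102) for Tecpr1, or -0.36 and -0.40 with the block. Bbs4 (1383007_at), a subunit of the BBSome that carries membrane proteins to the cilium, had 6.28, 6.93 and 7.52 at 24 h, against 6.94, 7.33 and 7.71 at 1 h. It was the gene whose p value gained most from the block among these, from an unadjusted p = 0.0122 at -0.38 ± 0.15 to an unadjusted p = 6.5e-05 at -0.48 ± 0.11, and the adjusted p was 0.31. The lowest 24 h array of Bbs4 was the single one of run 4.

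**Figure D2:**
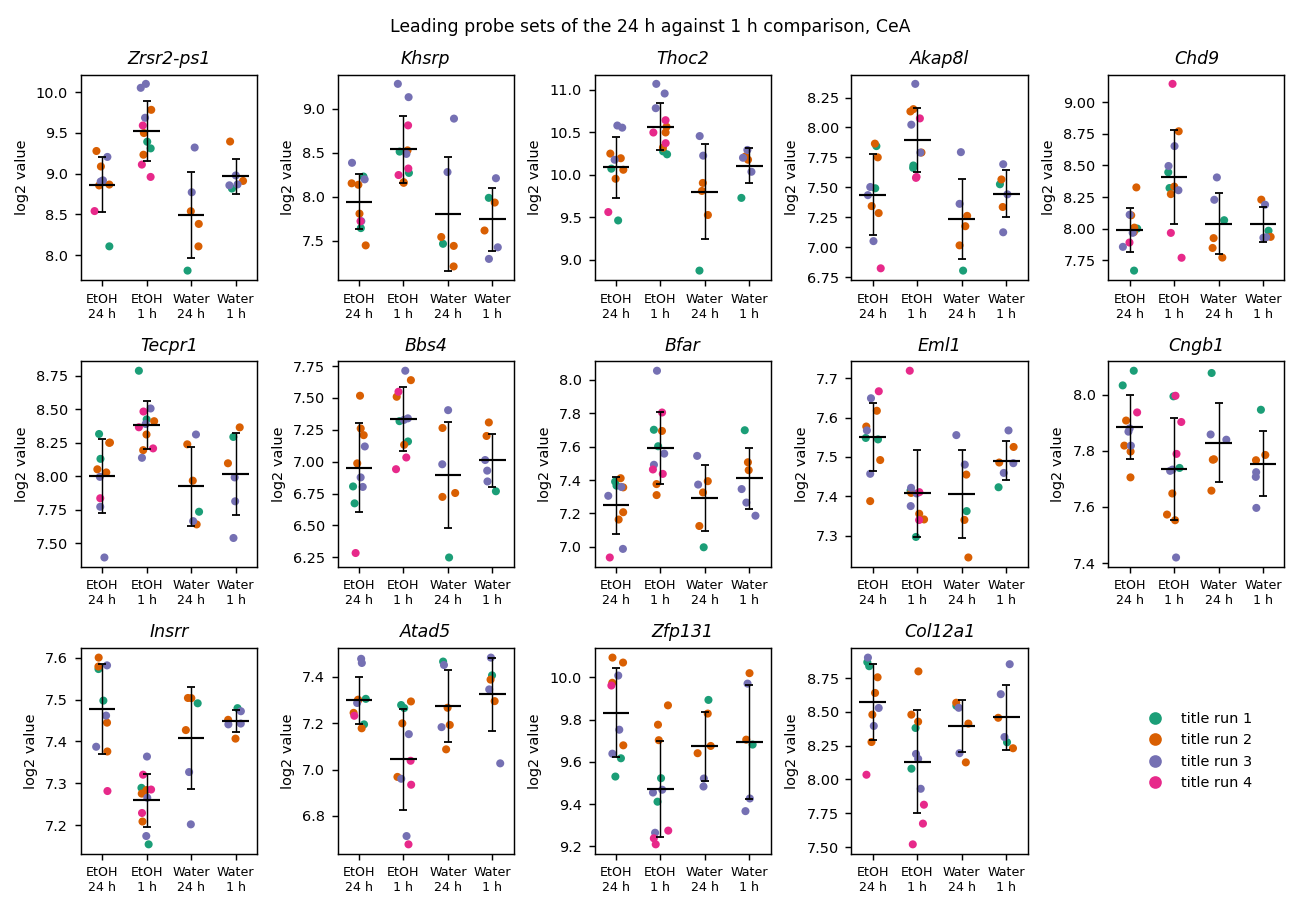
Log2 values (y axis) of the 14 genes described in full in each CeA array of ethanol (EtOH) and water rats at 24 h and 1 h, with the group mean and SD in black and points coloured by title-number run. For Khsrp, Chd9, Bfar, Tecpr1 and Zrsr2-ps1 all 10 ethanol arrays at 24 h lie under the 1 h median, and for Insrr 9 of 10 lie above every 1 h array. The genes were chosen for small p values in these same ethanol arrays.

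The genes with the smallest p values on the higher side differed by less. Insrr (1369514_at), an orphan receptor kinase of the insulin receptor family that senses alkaline pH, had 7.28, 7.48 and 7.60 at 24 h, against 7.15, 7.28 and 7.36 at 1 h. Of the 24 h arrays 9 lay above every 1 h array, the cleanest separation of the 14 genes, at a difference of 0.22 ± 0.05 (unadjusted p = 0.000131, adjusted 0.977). With the block it was 0.20 ± 0.05 (adjusted p = 0.31), and within runs 1 to 4 it was 0.31, 0.24, 0.21 and 0.00. Ethanol rats at 6 h averaged 7.42 ± 0.15 and water rats 7.41 ± 0.12 at 24 h and 7.45 ± 0.03 at 1 h. The 1 h ethanol mean of 7.26 was therefore the lowest of these groups, and the 24 h mean of 7.48 was level with the others.

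Zfp131 (1393780_at), a zinc finger transcription factor, had 9.53, 9.86 and 10.09 at 24 h, against 9.21, 9.45 and 9.87 at 1 h. Atad5 (1384701_at), which unloads the replication clamp from DNA, had 7.18, 7.29 and 7.48 at 24 h, against 6.68, 7.04 and 7.29 at 1 h. In each gene 10 of 10 arrays at 24 h exceeded the 1 h median and 5 exceeded every 1 h array. The differences were 0.36 ± 0.10 for Zfp131 (unadjusted p = 0.000529) and 0.25 ± 0.07 for Atad5 (unadjusted p = 0.00104), or 0.30 and 0.23 with the block. In water rats the differences were -0.02 ± 0.13 for Zfp131 and -0.05 ± 0.10 for Atad5, and the difference between ethanol and water rats did not pass for either gene (unadjusted p = 0.0214 and 0.015, adjusted p = 1 each). Both genes were chosen for the ethanol difference that this test contains, which favours small unadjusted values.

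Col12a1 (1370927_at), a collagen attached to the surface of fibrils, had 8.04, 8.58 and 8.90 at 24 h, against 7.52, 8.15 and 8.80 at 1 h. Its difference of 0.44 ± 0.13 (unadjusted p = 0.00111) shrank to 0.35 ± 0.10 with the block. The 3 lowest of its 1 h arrays all came from run 4, and within run 2 the difference was -0.03. Cngb1 (1370721_a_at), a beta subunit of cyclic nucleotide-gated channels, differed by 0.15 ± 0.06 without the block and 0.18 ± 0.05 with it (unadjusted p = 0.000529). Eml1 (1393950_at), a microtubule-binding protein, differed by 0.14 ± 0.05 and 0.16 ± 0.04 with the block, and its 4 runs agreed to within 0.15 and 0.19.

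**Figure D3:**
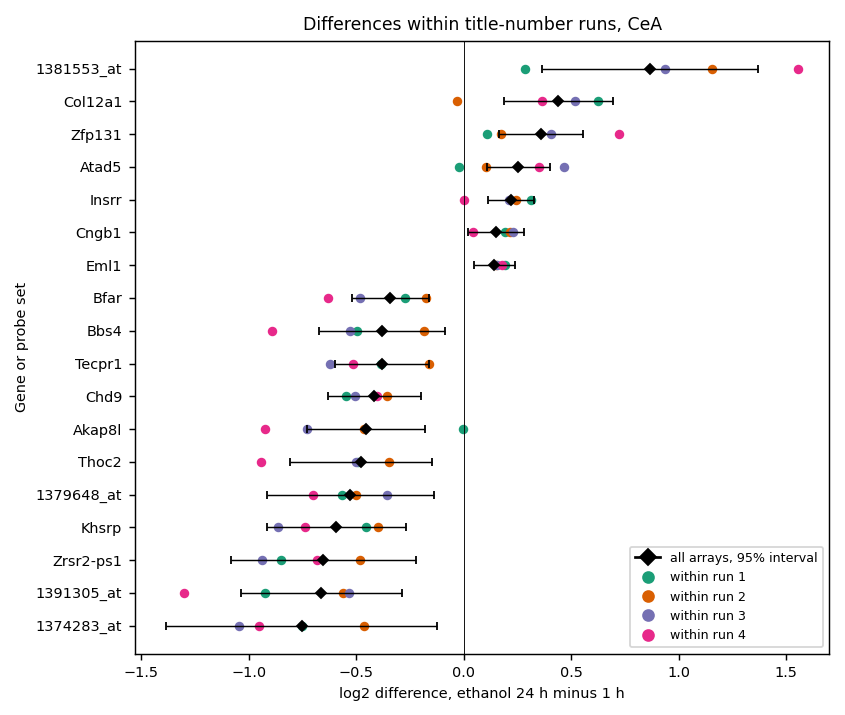
Log2 difference of ethanol rats at 24 h minus 1 h (x axis) for the 14 genes described in full and 4 probe sets without a gene symbol, over all arrays with its 95% confidence interval (black) and within each title-number run (coloured). Zrsr2-ps1, Khsrp, Thoc2, Chd9, Bfar, Tecpr1 and Bbs4 are below 0 in all 4 runs, while Akap8l is at -0.0043 in run 1 and Col12a1 at -0.03 in run 2. The genes were chosen for small p values in these same arrays.

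The remaining genes named for their small p values in either fit were alike in size. Higher at 24 h, none passing, were LOC102552530 (1379011_at) at 0.20 ± 0.06, C1qtnf12 (1393975_a_at), a secreted C1q-like hormone, at 0.19 ± 0.06, the growth factor-activated kinase Rps6ka3 (1382707_at) at 0.29 ± 0.09, and the ubiquitin ligase Lnx1 (1385497_x_at, whose suffix marks probes that may match other transcripts) at 0.30 ± 0.10. On the lower side were Spetex2l1 (1391152_at) at -0.43 ± 0.12, the kinase Cdkl4 (1375495_at) at -0.39 ± 0.11 and Pcnx4 (1381098_at) at -0.44 ± 0.13. The block added the orphan receptor Gpr61 (1375826_at) at -0.39 and the chromatin assembly kinase Tlk1 (1383827_at) at -0.68, both with the block. Tlk1 had 6.10, 7.03 and 7.72 at 24 h, against 7.15, 7.75 and 8.49 at 1 h, and 7 of 10 arrays at 24 h were under every 1 h array.

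Further probe sets of these genes, where there were any, mostly gave smaller differences. Of the 16 genes named from the fit without the block, 11 had at least 1 further tested probe set, 13 in all, and for the others nothing could be compared. In 7 of the 13 the sign was the same, 0 had an unadjusted p under 0.05, and their median difference in the named direction was 0.05 log2, against 0.34 for the named probe sets of these genes. For Khsrp the further probe set read -0.12 ± 0.12, for Chd9 0.01 ± 0.07, for Bfar -0.07 ± 0.07 and for Tecpr1 -0.06 ± 0.08. The 2 further probe sets of Thoc2 read 0.22 ± 0.13 and -0.13 ± 0.11, those of Akap8l 0.05 ± 0.10 and 0.03 ± 0.07, and that of Zrsr2-ps1 -0.02 ± 0.07. For Bbs4, named from the fit with the block, the further probe set had the sign of the named one, at -0.12 ± 0.07, or -0.15 with the block (unadjusted p = 0.0381). Other genes named from that fit were mixed. The 2 further probe sets of Tlk1 had the opposite sign, at 0.14 ± 0.09 and 0.02 ± 0.08, against -0.67 for the named one. Those of Eml1 read 0.10 ± 0.13 and -0.20 ± 0.15, against 0.14, and that of Gpr61 read -0.09 ± 0.08, against -0.34. Probe sets of 1 gene can read different ends or isoforms of its transcript, and which ends these probe sets read was not analysed here. Their levels differed as well. Over the CeA arrays the further probe sets of Khsrp and Chd9 averaged 11.28 and 11.84 log2, above every value given for the named ones. Those of Tlk1 averaged 11.69 and 7.85 and those of Thoc2 8.29 and 10.16, so not every further probe set was stronger. Whether the level bears on the differences was not tested.

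Among the clock genes, 4 that passed between 24 h and 6 h differed between 24 h and 1 h by at most 0.12 log2. Nr1d1 and Nr1d2 encode the REV-ERB repressors of the clock, Dbp a bZIP factor of its output, and Per3 a period protein. They were chosen for passing there, after their values were seen. Nr1d1 (1370816_at) had 8.30, 8.62 and 8.90 at 24 h, against 8.47, 8.55 and 8.84 at 1 h, a difference of 0.02 ± 0.08 with a 95% interval of -0.15 to 0.18. Nr1d2 (1390430_at) differed by 0.01 ± 0.06, with an interval of -0.11 to 0.13, or by -0.0058 with the block. Per3 (1378745_at) differed by 0.0035 ± 0.11, or by 0.06 with the block. Dbp (1387874_at) differed by 0.12 ± 0.16, or by 0.04 with the block.

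The 6 h arrays, by contrast, stood apart from the 24 h arrays in these genes. In the fit with the run block, 24 h minus 6 h was 0.48 ± 0.09 for Nr1d1 (adjusted p = 0.00334), 0.34 for Nr1d2 (adjusted p = 0.00142), 0.52 for Dbp (adjusted p = 0.00305) and 0.42 ± 0.08 for Per3 (adjusted p = 0.0155, limma). Without the block Nr1d1 (adjusted p = 0.00313) and Nr1d2 (adjusted p = 0.00712) passed, and Dbp (0.183) and Per3 (0.507) did not. In the same comparison 8 probe sets passed without the block (0.043%), 7 higher and 1 lower at 24 h, and 22 with it (0.118%), 15 higher and 7 lower. For 6 h against 1 h the counts were 6 (0.0322%) and 12 with the block (0.0644%). These comparisons share their 24 h or 1 h arrays with the comparison of 24 h and 1 h. Over 1, 6 and 24 h, Nr1d1 averaged 8.59 ± 0.12, 8.12 ± 0.20 and 8.61 ± 0.22 in ethanol rats (SD, n = 11, 10 and 10), and in water rats the means were 8.50, 8.14 and 8.81.

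**Figure D4:**
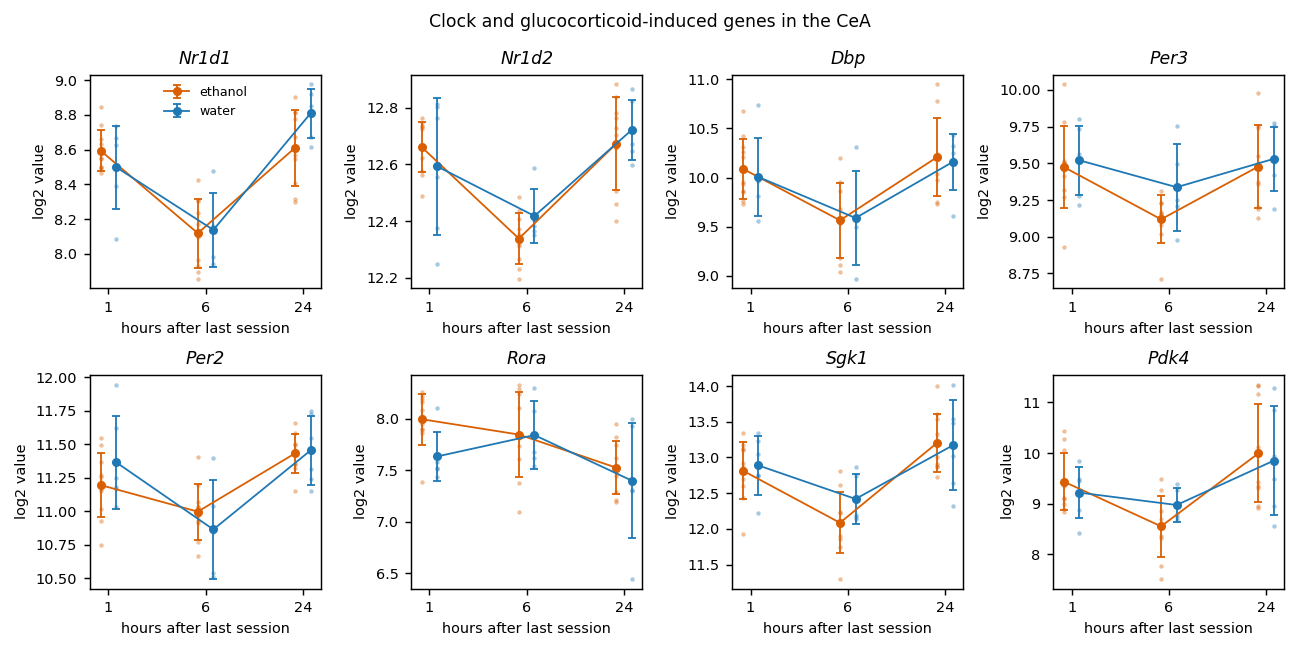
Log2 values (y axis) of 6 clock genes and 2 glucocorticoid-induced genes at 1, 6 and 24 h after the last session (x axis, equally spaced) in the CeA of ethanol and water rats, as means with SD and single arrays as dots. The means of Nr1d1, Nr1d2, Dbp and Per3 in ethanol rats lie within 0.12 log2 of each other at 24 h and 1 h and lower at 6 h. These genes were chosen for passing between 24 h and 6 h with the run block, in these same arrays.

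The clock's activator pair CLOCK and BMAL1 binds the E-box CACGTG, the output factor DBP binds the D-box TTATGTAA, and CREB binds the element TGACGTCA. The RefSeq promoters of Nr1d1, Nr1d2, Dbp and Per3 (rat build GRCr8, 250 bases before and 50 after each start, 5 windows since Nr1d1 has 2) were searched on both strands for these letters. Of the 5 windows, 1 held an E-box, the second of Nr1d1, 191 bases before its start, and 0 held a D-box or a CREB element. Among 33469 rat promoters of this length, 6.42% held the E-box, 0.893% the D-box and 1.83% the CREB element, and no match says only that the letters are not in the window. Both windows of Nr1d1 are shown because they differ in this element, with the E-box in capitals; they lie on the minus strand at chr10:84231763-84232062 (window 1) and chr10:84229405-84229704 (window 2).
Nr1d1 window 1: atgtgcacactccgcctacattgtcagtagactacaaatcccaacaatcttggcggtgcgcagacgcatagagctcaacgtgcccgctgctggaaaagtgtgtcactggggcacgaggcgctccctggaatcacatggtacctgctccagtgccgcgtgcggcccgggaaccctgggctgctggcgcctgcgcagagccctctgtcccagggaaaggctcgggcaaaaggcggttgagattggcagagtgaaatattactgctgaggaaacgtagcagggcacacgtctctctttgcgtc
Nr1d1 window 2: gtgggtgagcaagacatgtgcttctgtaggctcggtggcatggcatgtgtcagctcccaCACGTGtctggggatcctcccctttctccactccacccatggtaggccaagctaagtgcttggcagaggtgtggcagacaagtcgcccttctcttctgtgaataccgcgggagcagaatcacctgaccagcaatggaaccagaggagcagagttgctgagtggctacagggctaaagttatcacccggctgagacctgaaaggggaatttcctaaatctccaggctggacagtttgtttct

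Other clock genes stood nearer to a difference between 24 h and 1 h, without passing. Rora (1379397_at), the nuclear receptor that opposes the REV-ERBs, had 7.19, 7.49 and 7.95 at 24 h, against 7.39, 8.03 and 8.26 at 1 h. All 10 arrays at 24 h were under its 1 h median, at a difference of -0.47 ± 0.15 (unadjusted p = 0.00245, adjusted 0.977) that lay between -0.56 and -0.41 in the 4 runs. Per2 (1368303_at) had 11.15, 11.46 and 11.66 at 24 h, against 10.75, 11.22 and 11.55 at 1 h, with 9 of 10 arrays above the 1 h median, a difference of 0.24 ± 0.11 without the block (unadjusted p = 0.0322) and of 0.17 ± 0.09 with it (unadjusted p = 0.0697). The kinase Csnk1d (1373332_at), which marks period proteins for decay, differed by -0.13 ± 0.05 (unadjusted p = 0.0149). Of the 20 clock genes measured, 13 were above 0 with a median of 0.04, 3 (15%, against 4.32% of all probe sets) had an unadjusted p under 0.05 (Rora, Per2 and Csnk1d), and 0 passed. With the block the 3 were Rora, Csnk1d and Rorb, another nuclear receptor of the same family (unadjusted p = 0.0413).

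Glucocorticoid-induced genes showed the same course in part. Sgk1 (1367802_at), a kinase induced by corticosterone, had 12.72, 13.10 and 13.996 at 24 h, against 11.93, 12.87 and 13.34 at 1 h. The 24 h arrays were above the 1 h median in 8 of 10 cases, and the difference of 0.39 ± 0.18 did not pass (unadjusted p = 0.0397), while 24 h minus 6 h was 1.12 ± 0.19 (adjusted p = 0.00213, limma). Pdk4 (1378074_at), a kinase that shuts off pyruvate oxidation and is likewise hormone-induced, spread widely at 24 h, over 8.91, 9.73 and 11.35, against 8.83, 9.34 and 10.44 at 1 h. Its difference was 0.56 ± 0.31 (unadjusted p = 0.0745) and 0.68 ± 0.26 with the block (unadjusted p = 0.0114), with -0.18 in run 1 and 0.86 to 1.09 in the others. Between 24 h and 6 h it passed with the block, at 1.55 (adjusted p = 0.00153), and not without it (adjusted p = 0.0689). Water rats had 9.85 ± 1.07 for Pdk4 at 24 h and 9.22 ± 0.51 at 1 h, so the spread at 24 h was wide there as well. Tsc22d3 (1367771_at), which encodes the anti-inflammatory protein GILZ, differed by 0.26 ± 0.16, or by 0.18 with the block. Of the 15 measured members of this list 10 were above 0, with a median of 0.01, and 0 passed.

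A probe set without a gene symbol, 1381553_at, followed the same order of times and was chosen after its values were seen. It had 7.52, 8.57 and 9.88 at 24 h, against 7.03, 8.07 and 8.77 at 1 h, and 9 of 10 arrays at 24 h were above the 1 h median. The difference was 0.86 ± 0.25 without the block (unadjusted p = 0.00116) and 0.90 with it, and 24 h minus 6 h was 2.00 with the block (adjusted p = 1.21e-06). In water rats it averaged 8.50 ± 0.75 at 24 h and 7.46 ± 0.56 at 1 h.

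Immediate early genes lay on both sides of 0. Of 23 measured, 13 were above 0 and 0 passed, with a median of 0.03 that turned to -0.03 with the block. Fos (1375043_at), the usual mark of recent neuronal activity and named for that reason, had 11.17, 11.45 and 11.82 at 24 h, against 10.56, 11.56 and 12.32 at 1 h. Its 24 h arrays all lay inside the range of the 1 h arrays, and the difference was 0.08 ± 0.22, or -0.05 with the block. Jun (1369788_s_at), its partner in the AP-1 factor, differed by -0.17 ± 0.08 (unadjusted p = 0.0382), with 9 of 10 arrays under the 1 h median. Sik1 (1368596_at), a kinase induced by cAMP, differed by 0.22 ± 0.11 (unadjusted p = 0.0461), with 7 of 10 arrays above it.

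The 24 pathway lists were close to 0 as groups. Their measured members came to 541 different probe sets, of which 15 (2.77%, against 4.32% of all probe sets) had an unadjusted p under 0.05 and 0 passed. The list medians lay between -0.09 and 0.22, and 22 of the 24 were within 0.1 of 0. Oxidative phosphorylation, with 64 measured genes, was split evenly, 32 above and 32 below 0, with a median of 0.00 and single genes between -0.13 and 0.13. Ribosomal protein genes were above 0 in 25 of 37 (median 0.03), proteasome genes in 12 of 30 (median -0.02), and genes of glycolysis and the citric acid cycle in 16 of 27 (median 0.02). Cholesterol and fatty acid synthesis genes lay below 0 in 20 of 25 cases, with a median of -0.09, and endoplasmic reticulum chaperones in 19 of 24, with a median of -0.03. In the first of these the smallest p values were those of Mvd (1368020_at), a mevalonate pathway enzyme, at -0.15 ± 0.08, and the sterol demethylase Cyp51 (1367979_s_at) at -0.11 ± 0.07. Genes of ethanol and acetate metabolism were below 0 in 7 of 12 (median -0.02), and interferon-regulated genes in 12 of 14 (median -0.06). With the run block the interferon-regulated genes were below 0 in 8 of 14 (median -0.02), those of ethanol and acetate metabolism in 6 of 12 (median 0.0015), and the cholesterol and fatty acid synthesis genes in 20 of 25 (median -0.04). The endoplasmic reticulum chaperones were then below 0 in 15 of 24 (median -0.02). The median of 7 of the 24 pathway lists changed sign with the block.

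Opioid and stress peptide genes lay mostly above 0 without passing. The largest list median, 0.22, was that of the opioid genes, 4 of 5 of which were above 0, with the kappa receptor gene Oprk1 (1368197_at) at 0.40 ± 0.23 and Penk (1367949_at) at 0.22 ± 0.21. With the run block the median was 0.09. Stress and appetite peptide genes were above 0 in 15 of 17 (median 0.12), led by Cartpt (1368585_at), which encodes the CART peptide, at 0.56 ± 0.37 and the neuropeptide Y receptor Npy5r (1387497_at) at 0.25 ± 0.16. With the block 10 of the 17 were above 0 and the median was 0.00. GABA genes were above 0 in 6 of 13 (median -0.01), and within them the receptor subunit Gabrg1 (1387706_at) differed by -0.25 ± 0.15, or by -0.37 with the block (unadjusted p = 0.000826, not passing). Glutamate receptor genes were above 0 in 12 of 23 (median 0.01), monoamine signalling genes in 12 of 16 (median 0.07) and potassium channels in 10 of 19 (median 0.01). Among the plasticity kinases, 16 of 23 above 0, Gsk3b (1370267_at) had the smallest p, at -0.29 ± 0.10 (unadjusted p = 0.00511), with 9 of 10 arrays at 24 h under the 1 h median.

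Markers of the CeA and of neighbouring tissue also had list medians away from 0. The central amygdala markers were above 0 in 17 of 20 cases (median 0.18), among them Nts (1380967_at), the neurotensin precursor, at 0.31 ± 0.22 and Gad1 (1368344_at) at 0.05 ± 0.03. Striatal markers, several of which the CeA also expresses, were above 0 in 13 of 13 (median 0.13), oligodendrocyte markers below 0 in 13 of 14 (median -0.12), and markers of thalamus, hypothalamus and pallidum below 0 in 7 of 10 (median -0.13). Basolateral and cortical markers were above 0 in 4 of 7 cases, with a median of 0.12, or 0.03 with the run block. The mean log2 level of the central amygdala list was 10.25 to 11.21 with a median of 11.07 at 24 h, against 9.89 to 11.24 with a median of 10.74 at 1 h. That of the oligodendrocyte list was 11.29 to 12.50 with a median of 11.51 at 24 h, against 11.16 to 12.47 with a median of 11.88 at 1 h, so the ranges of the 2 times overlapped widely. With the run block these medians shrank to 0.09 for central amygdala, 0.06 for striatal, -0.03 for oligodendrocyte and -0.06 for the thalamic, hypothalamic and pallidal markers. Of all 13 marker lists 0 members passed. Opioid, peptide and monoamine genes share members with these marker lists, and the part of tissue composition in their values was not tested.

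**Figure D5:**
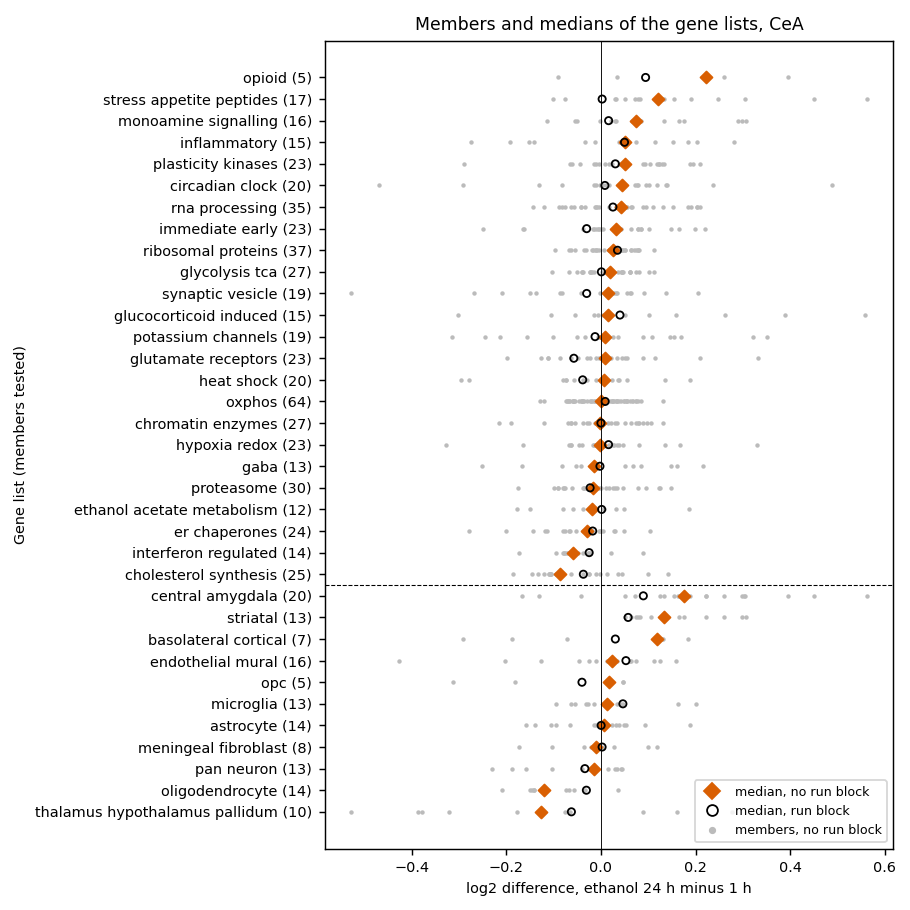
Log2 difference of ethanol rats at 24 h minus 1 h (x axis) for the measured members (grey), their median (orange) and their median with the run block (open circle) in each pathway list (above the dashed line) and marker list of at least 5 measured members (below), with the number measured in brackets. Medians lie between -0.13 and 0.22, and several of them move toward 0 with the run block.

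Water rats were compared over the same interval to see what 24 h against 1 h gives without ethanol. In the 6 arrays at 24 h and 6 at 1 h, limma passed 0 probe sets (0%). Unadjusted, 233 (1.25%) had a p under 0.05, of which 186 were higher and 47 lower, and with the run block 628 (3.37%) did. The smallest p values there were those of Nxpe4 (1383833_at) at 0.33 ± 0.09, the splicing factors Cwc25 (1374888_at) at 1.22 ± 0.36 and Ppih (1394554_at) at 0.27 ± 0.08, and the RNA polymerase III subunit Polr3c (1380256_at) at -0.37 ± 0.12, each with an adjusted p = 1. In ethanol rats these genes differed by 0.18, 0.15, 0.04 and 0.02.

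The difference between ethanol and water rats in this interval was tested directly. No probe set passed in limma (0% of 18625), and 351 (1.88%) had an unadjusted p under 0.05, or 789 (4.24%) with the block. The smallest p values belonged to Msl1 (1376028_at), of a histone acetylating complex, at -0.76 ± 0.24, Sipa1l3 (1377690_at) at 0.49 ± 0.16, the ubiquitin ligase Rnf144a (1395629_at) at -0.54 ± 0.18 and the chromatin remodelling subunit Smarce1 (1378203_at) at -0.80 ± 0.26, again with an adjusted p = 1 each. In the ethanol rats Rnf144a had 9.43, 9.55 and 9.96 at 24 h, against 9.58, 9.88 and 10.45 at 1 h. There 6 of 10 arrays at 24 h lay under every 1 h array, the ranges overlapped from 9.58 to 9.96, and the difference did not pass (unadjusted p = 0.00295, limma). Rnf144a was named from a test that contains these arrays, so this count and p value follow partly from the choice. The 95% interval of the ethanol minus water difference lay within 0.5 log2 of 0 for 64.3% of probe sets, and for the others it reached beyond that size.

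In the NAc shell, a striatal region of reward, the same contrast in ethanol rats called 0 probe sets as well (0%), and 522 (2.8%) had an unadjusted p under 0.05. The smallest p values were those of Fli1 (1393249_at), an endothelial and blood transcription factor, at 0.42 ± 0.12, Tpm3 (1387617_at), a tropomyosin, at 0.38 ± 0.12, the histone deacetylase Hdac4 (1376761_at) at -0.21 ± 0.06 and Zfp334 (1374274_at) at 0.20 ± 0.06, each with an adjusted p = 0.999. In the CeA Fli1, Hdac4 and Zfp334 differed by 0.07, -0.01 and 0.09, and Tpm3 was below the limit for testing. Of the genes described in full, Insrr and Atad5 differed in the same direction in the NAc shell, by 0.12 ± 0.06 and 0.20 ± 0.09 without passing, and Chd9, Thoc2 and Col12a1 differed by -0.04 ± 0.12, -0.03 ± 0.14 and -0.03 ± 0.08. Khsrp, Bfar, Bbs4 and Zrsr2-ps1 were below the limit for testing there. The test of the difference between the regions called 0 of 17572 probe sets (267, or 1.52%, at an unadjusted p under 0.05), and its smallest p values were those of Steap3 (1370374_at, a ferrireductase) at 0.36 ± 0.10, Fbxl20 (1376794_at, a synaptic ubiquitin ligase subunit) at 0.30 ± 0.10, Col12a1 at 0.47 ± 0.15 and Syt12 (1388060_at, a synaptotagmin) at -0.55 ± 0.18. Syt12 had 6.82, 7.14 and 7.60 in the CeA at 24 h, against 7.31, 7.54 and 8.09 at 1 h, and 8 of 10 arrays at 24 h were under every 1 h array. Syt12 was named from a test that contains these arrays, so this count follows partly from the choice. The share of all probe sets with such a count is not given.

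Within single runs the comparison had between 4 and 7 arrays, and limma passed 0, 0, 0 and 1 probe sets in runs 1 to 4, the last being 1373779_at, without a gene symbol, at -0.92 (adjusted p = 0.0158). Unadjusted p values under 0.05 numbered 1250 (6.71%), 215 (1.15%), 1407 (7.55%) and 1331 (7.15%). In run 4 the 24 h group is 1 array, which the fit assumes to vary like the others.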

How the data were processed

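RNA of the CeA and NAc shell of P rats was measured on Affymetrix rat arrays. Per the labels' protocols, extraction used Trizol, then RNeasy columns, and labelling took 2 cycles from 25 ng. The deposited values are log2 and were made with RMA, per the submitters' processing notes; its version and any filter are not given in the sources used here. The 57 control probe sets were left out, leaving 31042, of which 20826 carry 1 gene symbol in the platform annotation, 436 several and 9780 none.

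For each region a separate limma model (version 3.58.1, R 4.3.3) was fitted (a mean for each of 6 groups, moderated variances with an intensity trend), on the 18625 probe sets with a mean above the 40th percentile (6.96 in the CeA, 7.09 in the NAc shell). P values were adjusted by Benjamini-Hochberg over all of these, and an adjusted p under 0.05 counts as passing. For genes with several probe sets, lists use the one with the highest mean. The run block adds the 4 title-number runs as a term, with the water runs matched to the ethanol runs by their order. The region test used 17572 probe sets and treats all arrays as independent.

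Genes described in full are the 4 with the smallest p in each direction, without and with the run block; further genes are the 8 with the smallest p in each direction, list members with the smallest p, and the 4 smallest p of the other contrasts. Of the genes this rule names, 1 is not reported here. Members, lists and rules were chosen with earlier results of these data known. No array was a duplicate (0 found). The number of arrays limits the precision. Other settings were other arrays in the fit, filters, normalization, weights, RNA integrity, thresholds and arrays or runs left out.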

Additional observations from a re-analysis of the deposited data

Results flagged for a closer look

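Of 104 tests for a single array standing apart from its group, 9 (8.65%) met Dixon's 95% criterion, and chance gives about 1 in 20. The tests covered ethanol rats at 24 h and 6 h and water rats at 24 h and 1 h, and none of the 9 was in the ethanol rats at 24 h. Most of these probe sets were chosen for small p values of 24 h against 1 h in ethanol rats. That choice favours a 24 h group without an array apart. The tests reuse the same arrays, so they are not independent of each other. The 11 arrays of ethanol rats at 1 h were not tested, so single arrays standing apart there were not looked for.

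In ethanol rats at 6 h the highest array of Cngb1 was at 8.16, with the next at 7.91, and the lowest array of Per3 was at 8.71, with the next at 9.02; both are the array of title number 3. The lowest 6 h array of Akap8l was at 6.997, with the next at 7.54, and that of the probe set 1391305_at at 10.21, with the next at 10.94; both are the array of number 30.

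In water rats at 1 h the array of number 4 was the highest for Zrsr2-ps1 at 9.39, for 1391305_at at 11.38 and for Rora at 8.10, with the next arrays at 8.98, 10.91 and 7.66. Dbp had its highest 1 h water array at 10.74 (next 9.99) and its lowest 24 h water array at 9.61 (next 10.15).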

How the results depend on the processing

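No paired analysis was possible because the 24 h and 1 h ethanol arrays share no title number. Of 21 settings besides leaving out single arrays, 3 gave calls where 0 stood otherwise: the 21 arrays alone with the run block gave 4, the 31 ethanol arrays with the run block gave 4, and the run block without the low-correlation arrays, added after the data were seen, gave 2 (Zrsr2-ps1 and Thoc2). The cause was not tested. Leaving out single arrays gave 0 calls in every case with and without the run block over 48 arrays, and 0 to 7 over 21 arrays with the block. The water, NAc shell, ethanol against water and region tests stayed at 0 calls under the alternatives run. The 28 leading probe sets had 2335 values under alternatives, of which 0 changed sign and 31 passed. Nearly all of the 28 were chosen for small p values in these same arrays, and most settings leave out only 1 array. That their signs stayed the same follows largely from this and is no separate evidence for the differences. Of 4445 values of the 53 list members named for their small p, 3 changed sign: Penk at -0.0019 without the 1 h array of number 2 over 21 arrays with the run block, and, without run 3, Htr7 at 0.0081 and Hspa2 at -0.089. Genes named for other reasons had differences near 0: over 84 settings each (83 for Nr1d1), the sign changed in 48 for Fos (-0.19 to 0.26), 36 for Nr1d2 (-0.05 to 0.08), 18 for Nr1d1 (-0.05 to 0.09), 10 for Per3 (-0.10 to 0.11) and 1 for Dbp (-0.0049 to 0.19), and 0 values passed.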

Other observations

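Some genes of other lists had small unadjusted p values between ethanol rats at 24 h and 1 h, and none passed. RNA-binding and splicing genes were among them: the cold-inducible Rbm3 (1371583_at) had 12.98, 13.34 and 13.51 at 24 h (lowest, median and highest), against 12.65, 13.13 and 13.39 at 1 h, a difference of 0.20 ± 0.09. The splicing kinase Clk4 (1399141_at) differed by 0.21 ± 0.08 and the paraspeckle protein gene Sfpq (1388132_at) by -0.14 ± 0.07. Of the 35 measured genes of that list 21 were above 0, with a median of 0.04.

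Among genes of hypoxia and redox control, the oxygen sensor Egln3 (1368174_at) differed by 0.33 ± 0.15 and the sulfiredoxin Srxn1 (1372510_at) by -0.17 ± 0.08. Among inflammatory genes, Stat3 (1370224_at), the transcription factor of interleukin-6 signalling, had 8.67, 8.86 and 9.28 at 24 h, against 8.91, 9.12 and 9.47 at 1 h, with 9 of 10 arrays at 24 h under the 1 h median and a difference of -0.27 ± 0.11, or -0.26 with the run block. Hmgb1 (1388783_at), a nuclear protein released by damaged cells, differed by 0.28 ± 0.14, and the proteasome subunit Psma7 (1371869_at) by -0.17 ± 0.08.

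Single markers of vessels and glial precursors had small unadjusted p values too. Vwf (1389234_at), of endothelial cells, had 8.01, 9.08 and 9.47 at 24 h, against 8.48, 9.48 and 9.86 at 1 h, and all 10 arrays at 24 h were under the 1 h median, at -0.43 ± 0.18 (unadjusted p = 0.0207), or -0.35 with the run block. Of the 16 endothelial and mural markers measured, Vwf included, 10 were above 0, and the list median was 0.02. Cspg4 (1368685_at), of oligodendrocyte precursors, differed by -0.31 ± 0.13 (unadjusted p = 0.0207), and its list of 5 had a median of 0.02.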
